A study of Homo sapiens with 8 samples.

Results

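The subject is the accessible chromatin at transfer RNA (tRNA) genes of human chromosome 6, where most of them lie interspersed with histone genes on the short arm. From a deposited table of 129536 peaks, those on chromosome 6 that lay no more than 1 kb from an end of a RefSeq tRNA gene were taken, which gave 142 peaks. RefSeq places 155 of its 465 tRNA genes on chromosome 6, and 137 of these had at least 1 such peak. The 18 without one were 4 alanine, 3 isoleucine, 3 methionine, 2 leucine, 2 valine and 1 each of the arginine, glutamine, phenylalanine and tryptophan genes. Of the 142 peaks, 119 overlapped a tRNA gene and 23 lay beside one without touching it. The second kind is called flanking here.

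Open chromatin had been profiled with Omni-ATAC-seq. In this assay a transposase cuts accessible DNA in isolated nuclei and leaves sequencing adapters there. The cells were HEK293, a human embryonic kidney line, with the genotype given as eGFP-YAP. In 4 libraries the cells had received vehicle, and in 4 they had received sorbitol at 0.2 M for 1 h, which makes the medium hyperosmotic. Library and column names mark the vehicle group as 0 h and the sorbitol group as 1 h, so treatment and labelled time cannot be told apart. The study's description also mentions a serum starvation before the exposure, and the sample titles name plain HEK293 and not the eGFP-YAP line. Neither the labels nor the table say whether the replicates of a group came from separate cultures, so p-values measure the spread between these libraries, which may be technical. No clone is named.

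A tRNA gene carries its promoter inside the transcribed sequence. The A box and the B box are bound by the factor TFIIIC, which places TFIIIB just upstream, and TFIIIB recruits RNA polymerase III. The polymerase stops at a short run of T after the gene, and active genes form small nucleosome-poor sites that ATAC-seq detects. Symbols name the amino acid by 1 letter and then the anticodon, with TRX for the initiator methionine tRNA, and the last digits number the sequence variants and their copies.

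The sequences of 4 of these genes show where matches to the box motifs lie within the gene. They are the ones that fell whole inside a RefSeq promoter window of a neighbouring gene (GRCh38.p14), and a part of another gene, TRI-AAT1-1, is added for comparison with its relative TRI-AAT8-1. Each is given 5′ to 3′ on the gene's own strand, which was inferred from the box motifs, with the A box and B box letters in capitals.
TRI-TAT2-2: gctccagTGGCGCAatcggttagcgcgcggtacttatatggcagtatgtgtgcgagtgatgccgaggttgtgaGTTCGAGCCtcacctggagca
TRI-AAT8-1: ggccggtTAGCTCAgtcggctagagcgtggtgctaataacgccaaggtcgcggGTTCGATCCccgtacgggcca
TRA-AGC2-2: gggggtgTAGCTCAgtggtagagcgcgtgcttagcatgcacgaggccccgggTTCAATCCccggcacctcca
TRL-AAG2-2: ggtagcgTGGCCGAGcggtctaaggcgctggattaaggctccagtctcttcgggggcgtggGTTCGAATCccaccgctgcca
TRI-AAT1-1 (its last 49 bases): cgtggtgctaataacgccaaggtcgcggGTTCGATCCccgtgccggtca
TRI-TAT2-2 lies at chr6:27020346-27020439 on the plus strand and its length of 94 bases includes an intron. TRI-AAT8-1 lies at chr6:27668583-27668656 (plus strand, 74 bases), TRA-AGC2-2 at chr6:28863685-28863756 (minus strand, 72 bases) and TRL-AAG2-2 at chr6:28943622-28943703 (minus strand, 82 bases). TRI-AAT1-1 lies far from the others, at chr6:57800211-57800284 on the plus strand.

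The motif searched for the B box was GTTCGANNC, on both strands, and it was found in TRI-TAT2-2, TRI-AAT8-1, TRL-AAG2-2 and the part of TRI-AAT1-1. Of 35116 RefSeq promoter windows of 300 bp, 0.83% held it. The A box form TGGCNNAG was in TRL-AAG2-2 alone among the 4 whole genes, against 21.4% of windows, and the looser TNGCNNA, which 75.5% of windows held, located it in the other 3. The looser B box TTCNANNC, held by 34.6% of windows, was used for TRA-AGC2-2. Both looser forms were adopted after the sequences were seen.

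Downstream of the genes the 20 bases differed. TRI-TAT2-2 is followed by ttgTTTTccaacccaaaata, TRA-AGC2-2 by gcttcaTTTTTctcccgcct, TRL-AAG2-2 by gtgtgaggtaTTTTTTTTTT and TRI-AAT1-1 by gaagcggcTTTTTTTaatgt, with the T run in capitals. TRI-AAT8-1 is followed by ctggatgccatagtggggcc, in which no run of TTTT was found. Over the 49 bases that could be compared, TRI-AAT8-1 and TRI-AAT1-1 were identical at 46. The peaks over these genes are described with the isoleucine group below.

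Across the 142 peaks, accessibility was mostly lower after sorbitol. Counts were put on a common scale, CPM (counts divided by the library total and a TMM factor, where TMM is a trimmed mean of log ratios between libraries), and every peak of the table was tested with edgeR's quasi-likelihood test. At a Benjamini-Hochberg adjusted p under 0.05, 97 of the 142 peaks were lower after sorbitol, 1 was higher and 44 passed in neither direction. Over all 129487 tested peaks, 13.1% were called lower and 16.0% higher. The median log2 fold change was -0.39 for the 142 peaks, with a range of -1.13 to 0.75, and 0.01 for all peaks. In 126 of the 142 the estimate was below zero.

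These counts depended on how the libraries were scaled. With factors computed from peaks near gene ends alone, which moved the median of all peaks to 0.19, 64 of the 142 were called lower and 9 higher, and their median was -0.21. With factors from unplaced contigs, 37 were called lower and 0 higher at a median of -0.44. A single factor per library shifts every peak alike, so the distance from the median of all peaks to that of the 142 stayed at -0.40 under both. With a loess offset, which depends on peak strength, the distance was smaller: the median was -0.26 for the 142, with 78 called lower and 6 higher, and -0.02 for all peaks.

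The summed level of the 142 peaks was 4210, 4324, 3900 and 3562 CPM in vehicle libraries 1 to 4, and 2940, 3020, 2864 and 3117 CPM in sorbitol libraries 1 to 4. Every sorbitol sum was below every vehicle sum. The means were 3999 ± 342 CPM (SD, n = 4) with vehicle and 2985 ± 109 (SD, n = 4) with sorbitol, a log2 ratio of -0.42, or 74.7% of the vehicle level. Vehicle 4 was the lowest vehicle library and sorbitol 4 the highest sorbitol library. That pair alone gave a log2 ratio of -0.19, with 105 of the 142 peaks below zero, whereas replicates 1 to 3 gave -0.49 and 131 peaks. Library names hold a code that starts with 1 or 2 and whose meaning is not given. In the 2 libraries per group whose code starts with 1, which are replicates 1 and 2, the log2 ratio was -0.52. In those with 2, which are replicates 3 and 4, it was -0.32. The second set thus holds the replicate 4 libraries just described. Without replicate 4 of both groups, 100 peaks were called lower and 1 higher by the same edgeR test, a setting added after the data were seen.

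**Figure D1:**
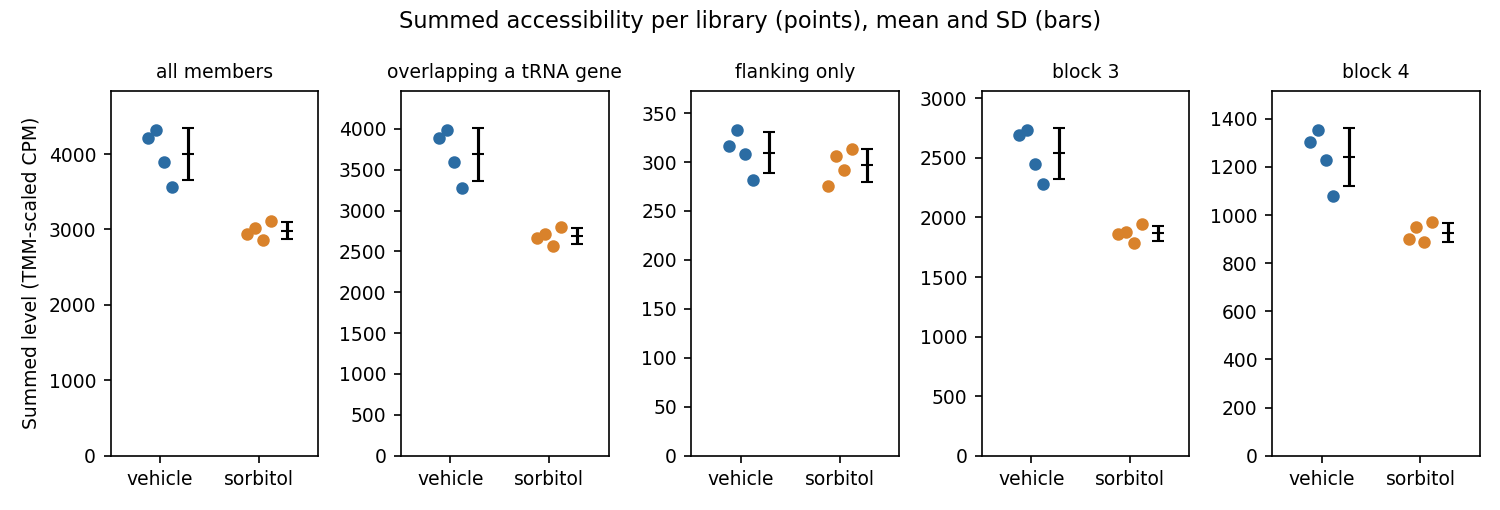
Summed level per library in TMM-scaled CPM for the 142 peaks, the 119 that overlap a tRNA gene, the 23 flanking peaks and the 2 large blocks along the chromosome. Points are libraries and bars give mean and SD (n = 4 per group). The groups separate in every panel but the one for flanking peaks, where vehicle averages 310 CPM and sorbitol 297 CPM.

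In raw counts, tRNA-gene peaks held 0.388% ± 0.0273 (SD, n = 4) of all counts in peaks with vehicle and 0.307% ± 0.00804 with sorbitol. Library totals, summed over all peaks, ran from 11522266 to 19831471 counts. Each sorbitol total was below each vehicle total. These totals count only what fell in peaks and do not measure sequencing depth. The mean count of a peak over the 8 libraries was 15.4 to 1582, with a median of 322. All 142 peaks passed the filter on low counts. Among marker genes, NEFL and NEFM, neurofilament genes known to be active in HEK293, had peaks at 29.6 and 5.56 CPM. PAX2 and LIN28B, also on the HEK293 list, had no peak within 1 kb. PTPRC and LYZ, genes of blood cells, were at 1.16 and 1.31 CPM, and CD3E and ALB had no peak. In these bulk libraries, fewer open copies and less access per copy cannot be told apart.

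Most of the lower calls were over the genes themselves. Of the 119 peaks that overlapped a tRNA gene, 94 were called lower and 0 higher by the edgeR test, and 81 had all 4 sorbitol libraries below all 4 vehicle libraries, a pattern seen in 12.6% of all tested peaks. Another 6 of the 119 had a fold change above zero, the highest being TRA-AGC12-1 at 0.42, and none of these passed the test. The median over the 119 was -0.44, and it stayed below zero under each of the 5 other scalings tried (-0.27 to -0.50). Their summed level went from 3689 ± 321 CPM (SD, n = 4) to 2688 ± 96.9 (SD, n = 4), which is 72.9% of vehicle.

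By the edgeR test 3 of the 23 flanking peaks, or 13.0%, were called lower and 1 higher. Over all tested peaks 13.1% were called lower, but their median level was only 3.02 CPM. Among peaks near ends of genes other than tRNA genes, 32.2% were called lower. In the decile of the table next to the strongest (at least 8.57 CPM), 27.4% of all peaks were. The median of the flanking peaks was -0.05 here but above zero with library totals alone (0.04), a loess offset (0.02) or gene-end factors (0.13). Their sums were 316, 333, 308 and 282 CPM with vehicle and 275, 307, 292 and 313 CPM with sorbitol, and the groups overlapped. Singly, 3 of the 23 had all sorbitol libraries below all vehicle libraries, and 2 had all above. Of all tested peaks, 12.6% and 13.7% did so. Flanking peaks were also narrower, at a median of 429 bp against 943 bp, and weaker, at a median of 12.2 against 24.3 CPM. Among the 6 flanking peaks in the strongest decile of the whole table, 0 were called lower, against 66 of 74 overlapping peaks in that decile.

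At 19 tRNA genes both kinds of peak were present, which allowed a comparison within the same library. This comparison was chosen after the data were seen. The ratio of the overlapping to the flanking peak was lower after sorbitol at 17 of 19 loci, with a median difference in log2 ratio of -0.50. At 11 loci every sorbitol ratio was below every vehicle ratio, and in these the exact two-sided permutation test gave p = 0.0286, the smallest that 4 against 4 libraries allow, or 0.0494 after Benjamini-Hochberg adjustment over the 19. No locus had all sorbitol ratios above all vehicle ratios. Among 14823 pairs of neighbouring peaks at most 1 kb apart across the genome, 16.8% had groups that did not overlap, in either direction. Those pairs were not matched to the 19 loci for peak strength, so the shares are not directly comparable. With 1 library left out at a time, the ratio was lower at 16 to 18 of the 19 loci.

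TRY-GTA6-1, a tyrosine tRNA gene, shows the contrast. Its own peak (chr6:26594803-26595206) was at 13.7, 13.1, 11.2 and 9.58 CPM with vehicle and 7.83, 5.21, 5.69 and 5.84 CPM with sorbitol. All sorbitol libraries were below all vehicle libraries, a log2 fold change of -0.96. The flanking peak (chr6:26595662-26596240), which lies at an end of ABT1, was at 25.1, 27.1, 25.6 and 24.97 CPM with vehicle and 23.8, 27.5, 27.5 and 27.6 CPM with sorbitol. There the groups overlapped, and the log2 fold change was 0.05 ± 0.09 (SE, edgeR adjusted p = 0.721). The difference in log2 ratio was -1.01 (exact two-sided permutation p = 0.0286).

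TRI-AAT6-1, an isoleucine tRNA gene, had an overlapping peak 296 bp from its flanking peak. The ratio between them was 1.93, 2.47, 2.23 and 1.90 with vehicle and 1.25, 1.15, 1.26 and 0.907 with sorbitol, a difference of -0.90 on the log2 scale. The flanking peak had a log2 fold change of 0.29 that did not pass (edgeR adjusted p = 0.0511), while the overlapping one fell by 0.63. In the flanking peak all sorbitol libraries were above all vehicle libraries, so both peaks contributed to the change in ratio. At TRP-AGG2-2, a proline tRNA gene, the ratio was 1.84, 2.07, 1.94 and 2.00 with vehicle and 0.787, 1.03, 1.24 and 0.960 with sorbitol. The groups did not overlap at either locus.

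The exceptions were TRK-TTT6-1 and TRA-CGC4-1. At the lysine gene TRK-TTT6-1 the flanking peak fell more (-0.93) than the gene's peak (-0.41), the log2 ratio was 0.61 higher on average, and the test did not pass (exact two-sided permutation p = 0.0857). TRA-CGC4-1, an alanine gene, had both peaks called lower at nearly the same size, -0.36 and -0.40. In 18 of the 19 loci the overlapping peak was called lower, the flanking one in 3. In 4 of the 19 the flanking peak was the stronger of the pair.

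**Figure D2:**
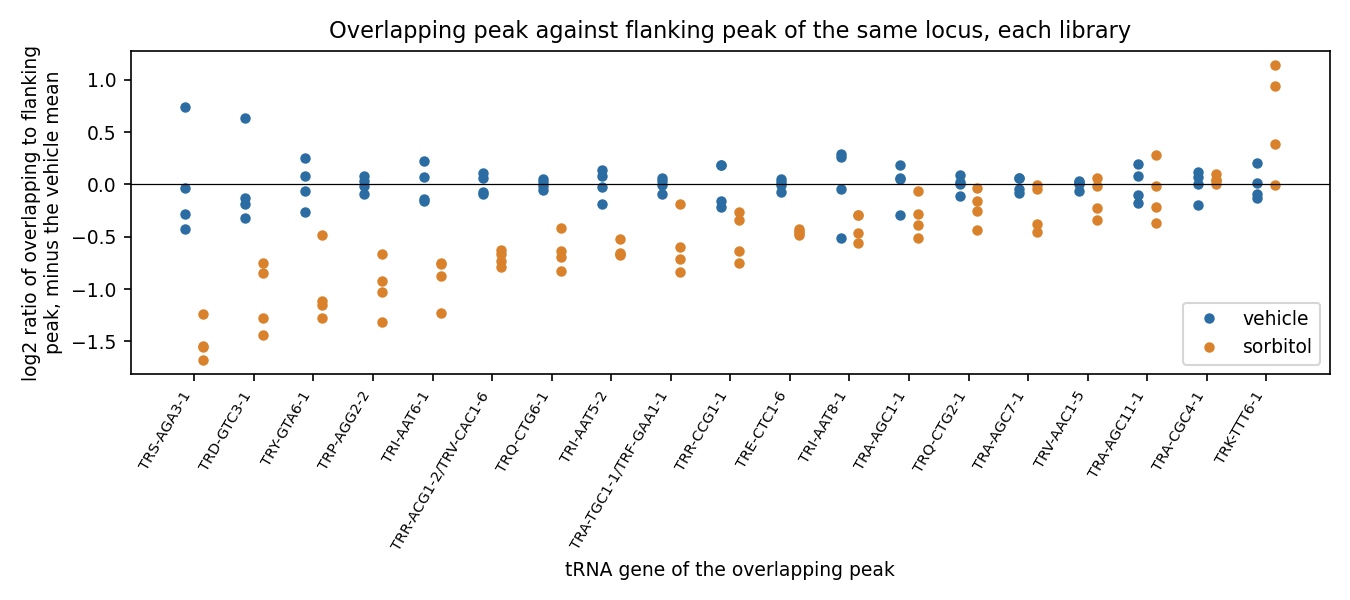
Log2 ratio of the peak over a tRNA gene to the flanking peak of the same gene, in each library, after subtracting the vehicle mean of that locus, ordered by the difference between groups. Blue points are vehicle and orange points sorbitol libraries (4 each). At 11 of the 19 loci all orange points lie below all blue points, and TRK-TTT6-1 at the right end has a mean difference of 0.61.

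Positions along the chromosome were grouped into blocks, split where neighbouring tRNA genes are over 300 kb apart, which gave 8 blocks numbered from the short-arm end. Block 3 (chr6:26286526-27902978) holds 100 genes and block 4 (chr6:28213037-28989083) holds 44. In block 3, 62 of 94 peaks were called lower and 1 higher, with a median of -0.39. In block 4, 33 of 42 were called lower and 0 higher, with a median of -0.41. The summed level went from 2538 ± 213 to 1866 ± 64.4 CPM in block 3 and from 1242 ± 120 to 927 ± 40.0 CPM in block 4 (SD, n = 4 per group). In both blocks every sorbitol sum was below every vehicle sum.

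With a split at 100 kb block 3 came apart into smaller runs. The run at chr6:26286526-26331515 had 8 of 8 peaks called lower at a median of -0.61. In the next run, chr6:26521208-26828299, 15 of 29 were called lower at a median of -0.28. This run held 4 overlapping peaks of alanine genes with estimates above zero that did not pass the test. They lay over TRA-AGC12-1, TRA-AGC10-1, TRA-AGC14-2 and the copy of TRNAA-AGC at the peak chr6:26705279-26705914. Their levels were low, with vehicle means of 2.28, 1.10, 4.54 and 4.25 CPM. Other copies share the symbol TRNAA-AGC, and of their overlapping peaks the one at chr6:26770718-26771694 was called lower at -0.28 and the one at chr6:26795874-26796454 had -0.19, not called. In the run at chr6:27020346-27335062, 15 of 21 were called lower (median -0.53), and at chr6:27478812-27795932 it was 23 of 35 (median -0.39). Differences between runs were not tested.

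**Figure D3:**
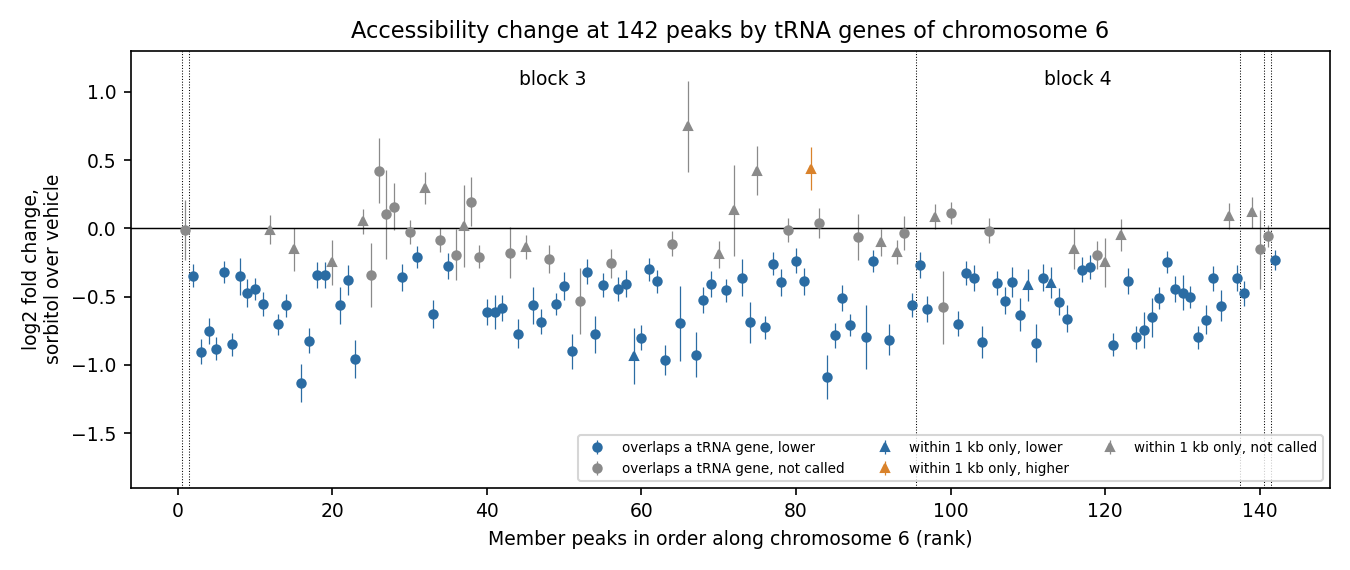
Log2 fold change, sorbitol over vehicle, with its standard error, for the 142 peaks in their order along chromosome 6 (the x axis is rank, not distance). Circles overlap a tRNA gene, triangles lie within 1 kb only, blue is called lower, orange higher and grey neither, and dotted lines separate the blocks. Blue circles run through both large blocks, and most grey or orange triangles sit above them.

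Outside these blocks 6 peaks remained. TRL-TAA1-1, a leucine gene at chr6:144216547-144216629, had the level of 121, 117, 119 and 106 CPM with vehicle and 91.2, 98.9, 101 and 103 CPM with sorbitol. The groups did not overlap, and the log2 fold change was -0.23 ± 0.07 (SE, edgeR adjusted p = 0.0128), a call lost under 4 of the other scalings and without vehicle 1. TRE-CTC1-7, a glutamate gene at an end of NCOA7, was at 57.0 ± 5.74 and 54.8 ± 4.61 CPM (SD, n = 4), and TRQ-CTG1-1, a glutamine gene, at 2.62 ± 0.196 and 2.59 ± 0.348 CPM. Neither passed the test, and their groups overlapped. Of 3 peaks in block 5, TRI-AAT1-1 was called lower. Blocks 1 and 8 hold 1 gene each and had no peak.

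The surroundings were counted in the same way. Within blocks 3 and 4, 58 other peaks lay near an end of another gene, of which 14 were called lower and 4 higher, with a median of -0.10 that turned above zero with the loess offset (0.02) or gene-end factors (0.07). The 77 remaining peaks of these blocks had 12 called lower and 18 higher, at a median of 0.12. Among all 9510 tested peaks of chromosome 6 that are not members, including those just counted, 606 were called lower and 2278 higher, at a median of 0.16. On other chromosomes, 220 peaks met the same rule for tRNA genes, and 174 were called lower and 3 higher at a median of -0.53. Of these, 160 of 187 overlapping peaks were called lower at a median of -0.56, and 14 of 33 flanking peaks were called lower and 3 higher at a median of -0.41. The difference between chromosome 6 and the others was not tested.

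Calls were also counted by the strength of the peak. In the strongest decile of the table (at least 18.8 CPM on average), 66 of 80 tRNA-gene peaks of chromosome 6 were called lower, or 82.5%, beside 43.8% of all peaks in that decile and 48.4% of peaks near ends of other genes. In the next decile it was 19 of 29, or 65.5%, beside 27.4% of all peaks. Below the strongest 3 deciles, 4 of 22 were called lower, or 18.2%, beside 6.11% of all peaks and 12.3% of peaks near ends of other genes. Across the 142 peaks, log2 fold change and log2 mean CPM had a Pearson r of -0.22 and a Spearman rho of -0.12, and across the 119 overlapping peaks -0.08 and 0.02. These points share the same 8 libraries.

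Peaks with more than 1 tRNA gene within reach had lower medians. With 1 gene within 1 kb, 79 of 119 peaks were called lower at a median of -0.36. With 2 genes it was 15 of 20 at -0.61, and with 3 genes 3 of 3 at -0.75. The median level rose alongside, from 20.7 to 26.7 and 39.3 CPM. Overlapping and flanking peaks were not separated in these sets. The parts of level and of flanking peaks in the difference were not tested.

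Among single peaks, TRP-AGG2-2 (chr6:26555117-26555504), whose peak also lies within 1 kb of TRI-AAT5-1, fell most. It was at 11.4, 11.3, 9.91 and 10.7 CPM with vehicle and 4.00, 5.44, 5.27 and 4.95 CPM with sorbitol. All sorbitol libraries were below all vehicle libraries. The log2 fold change was -1.13 ± 0.14 (SE, edgeR adjusted p = 1.03e-08), or 2.19-fold lower. TRR-ACG2-4 (chr6:27670415-27670719), an arginine gene, was at 8.71, 7.77, 7.94 and 8.76 CPM with vehicle and 2.67, 4.74, 4.18 and 3.92 CPM with sorbitol, 2.13-fold lower. These 2 were the ones called lower by at least 2-fold, and 0.881% of all tested peaks were.

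**Figure D4:**
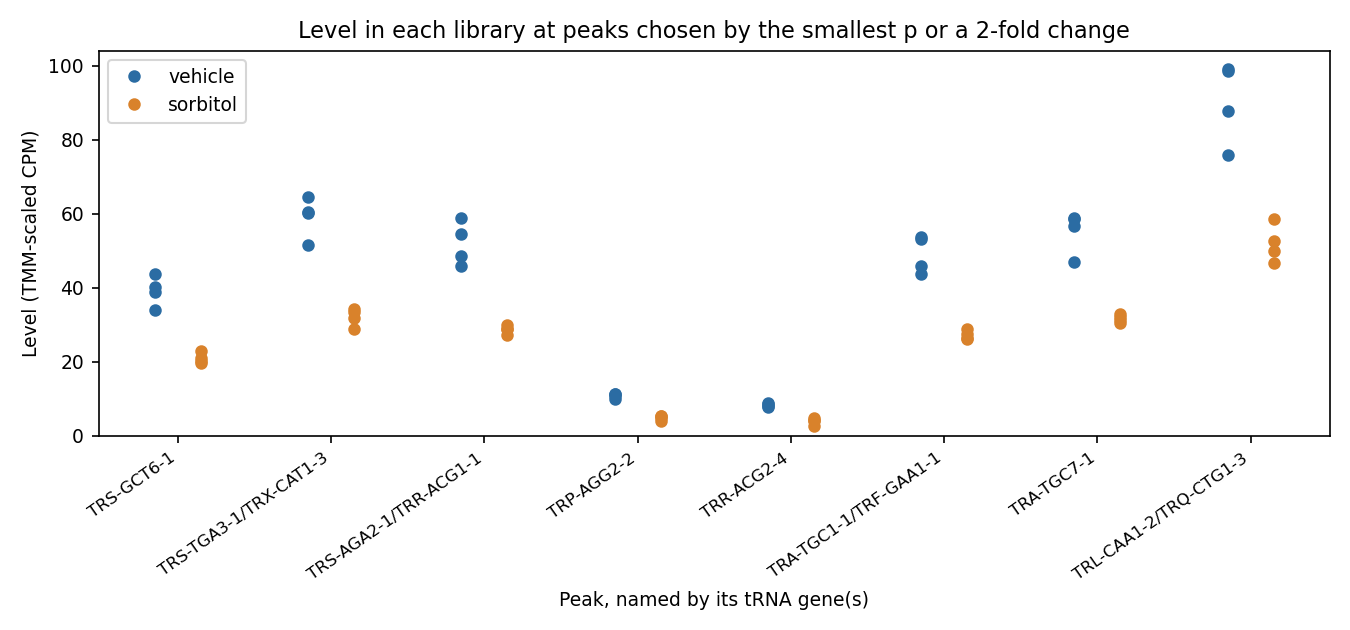
Level in each library, in TMM-scaled CPM, of the 8 peaks with the smallest p-values or a change of at least 2-fold. Blue points are vehicle and orange points sorbitol libraries (4 each), and at each of the 8 peaks every orange point lies below every blue point.

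The 6 peaks with the smallest p-values were all strong ones, and 4 of them spanned genes for more than 1 amino acid. The peak over TRS-TGA3-1 and TRX-CAT1-3, a serine and an initiator methionine gene (chr6:26312360-26313384), was at 64.4, 60.4, 60.1 and 51.5 CPM with vehicle and 34.2, 31.8, 28.9 and 33.4 CPM with sorbitol. No library of one group reached into the other. Its log2 fold change was -0.88 ± 0.08 (SE, edgeR adjusted p = 1.29e-11). The neighbouring serine gene TRS-GCT6-1 (chr6:26304757-26305677) went from 39.2 ± 3.96 to 21.0 ± 1.34 CPM (SD, n = 4), which is -0.90 in log2 fold change.

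In block 4, the peak over TRL-CAA1-2 and TRQ-CTG1-3, a leucine and a glutamine gene (chr6:28940219-28942015), was at 98.7, 99.2, 87.8 and 76.0 CPM with vehicle and 49.8, 52.6, 46.7 and 58.5 CPM with sorbitol. Vehicle 4 and sorbitol 4 were the nearest to each other, and the groups did not overlap. Its log2 fold change was -0.80, the same as at TRA-TGC7-1, an alanine gene (55.3 ± 5.61 to 31.8 ± 1.07 CPM, SD, n = 4). TRA-TGC1-1/TRF-GAA1-1 and TRS-AGA2-1/TRR-ACG1-1 had -0.85 each. Near-identical copies of tRNA genes can take each other's reads, and the mapping-quality filter is not given in the sources used here, so the level of a single copy is uncertain.

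The strongest peak of block 3 lay over TRR-ACG1-2 and TRV-CAC1-6, an arginine and a valine gene, and at an end of HMGN4, which encodes a nucleosome-binding protein (chr6:26537182-26538663). It was at 118, 119, 108 and 98.0 CPM with vehicle and 64.1, 70.6, 66.2 and 72.0 CPM with sorbitol, a log2 fold change of -0.70. The flanking peak 72 bp away was at 15.7 CPM with vehicle and 15.6 CPM with sorbitol. The ratio of the pair was 6.66 to 7.66 with vehicle and 4.11 to 4.61 with sorbitol, without overlap. Only TRX-CAT1-2 had a peak shared with an end of a replication-dependent histone gene, H4C8. It went from 45.6 ± 2.03 to 35.8 ± 3.75 CPM (SD, n = 4). Its fold change was -0.35 on the log2 scale, and it was no longer called with the loess offset or with factors from gene ends or contigs.

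By amino acid, peaks near genes of several amino acids had the lowest median among groups, -0.68, with 17 of 20 called lower. All of these belong to the 23 peaks with 2 or more tRNA genes within 1 kb, whose median was -0.67. Their sum went from 832 ± 83.8 to 529 ± 22.0 CPM (SD, n = 4), or 63.6% of vehicle. The strongest of them is the HMGN4 peak described above. Taken by gene, 130 of the 155 tRNA genes lay in an overlapping peak, and 105 lay in one called lower.

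Serine genes had 12 of 14 peaks called lower at a median of -0.54, and a sum of 369 ± 39.0 against 255 ± 8.31 CPM (SD, n = 4). All 17 serine genes of chromosome 6 had a peak, and 16 lay in a peak called lower. The strongest, TRS-AGA4-1, was at 69.1, 71.7, 61.1 and 54.0 CPM with vehicle and 49.5, 44.2, 47.1 and 46.2 CPM with sorbitol, a log2 fold change of -0.45 without overlap. The flanking peak of TRS-AGA3-1 had the highest estimate of the 142, 0.75 ± 0.33 (SE, edgeR adjusted p = 0.0840), at 0.837 ± 0.253 and 1.39 ± 0.109 CPM (SD, n = 4). At these low levels all its sorbitol libraries were above all its vehicle libraries.

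Alanine, the largest group with 30 peaks, had 19 called lower and 0 higher at a median of -0.35. By anticodon it was 12 of 22 for AGC (median -0.31), 4 of 5 for TGC (-0.51) and 3 of 3 for CGC (-0.40). The sum was 614 ± 54.4 CPM with vehicle and 467 ± 15.5 with sorbitol (SD, n = 4). The strongest alanine peak, TRA-AGC2-1, went from 75.4 ± 5.93 to 63.6 ± 5.31 CPM with overlapping groups. Its call (log2 fold change -0.25, edgeR adjusted p = 0.0156) was lost under 4 of the other scalings and without vehicle 2, vehicle 3 or sorbitol 1. The peak over TRA-AGC2-2, whose sequence is shown above, was at 27.5, 31.6, 27.2 and 23.7 CPM with vehicle and 20.4, 21.0, 17.4 and 22.1 CPM with sorbitol, a log2 fold change of -0.44 without overlap.

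Isoleucine genes had 6 of 14 peaks called lower (42.9%) and 1 higher, at a median of -0.36. Their median level was 16.1 CPM. In the decile next to the strongest, 27.4% of all peaks and 40.5% of peaks near ends of other genes were called lower. TRI-AAT2-1, the strongest, was at 72.4, 75.1, 65.7 and 62.8 CPM with vehicle and 38.7, 44.0, 41.9 and 44.3 CPM with sorbitol. Its groups were far apart, and the log2 fold change was -0.71. The near-relatives TRI-AAT1-1 and TRI-AAT8-1 differed in their values. The peak over TRI-AAT1-1 was at 27.1, 30.2, 28.5 and 27.0 CPM with vehicle and 18.4, 20.4, 21.7 and 20.7 CPM with sorbitol, whereas the peak over TRI-AAT8-1 was at 14.3, 15.8, 15.2 and 12.0 CPM with vehicle and 14.0, 15.5, 14.98 and 14.4 CPM with sorbitol. The first fell by 0.47 without overlap, and the second had an estimate of 0.04 with overlapping groups. The difference between these genes was not tested. TRI-TAT2-2, the gene with an intron shown above, had a log2 fold change of -0.21 at an edgeR adjusted p of 0.0518, and its groups did not overlap.

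The single peak called higher was the flanking peak of TRI-AAT8-1 (chr6:27667713-27668083), which lies 500 bp from the gene and at an end of LOC124901292. It was at 7.82, 5.06, 4.75 and 4.72 CPM with vehicle and 6.58, 7.31, 7.95 and 8.18 CPM with sorbitol. The groups overlapped through vehicle 1. The log2 fold change was 0.44 ± 0.16 (SE, edgeR adjusted p = 0.0283), and the call was lost without vehicle 2, vehicle 3, vehicle 4, sorbitol 3 or sorbitol 4 and in the DESeq2 test.

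Threonine peaks were divided by anticodon. With AGT, 4 of 5 were called lower at a median of -0.56, the TGT peak was called lower at -0.59, and with CGT 0 of 3 were called. The CGT set was singled out after its values were seen. TRT-CGT5-1, the strongest threonine peak, was at 32.2, 29.4, 32.8 and 29.6 CPM with vehicle and 31.3, 29.7, 27.8 and 33.9 CPM with sorbitol. Its groups overlapped fully, with an estimate of -0.01 ± 0.09 (SE, edgeR adjusted p = 0.934). TRT-CGT3-1 and the flanking peak of TRT-CGT1-1 had -0.02 and 0.08. The difference between anticodons was not tested.

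Leucine had 6 of 7 peaks called lower (median -0.40), valine 6 of 7 (-0.39), lysine 5 of 5 (-0.36), tyrosine 4 of 5 (-0.38) and the initiator methionine 2 of 2 (-0.40). TRL-CAA1-1, the strongest peak of block 4, was at 98.3, 98.3, 83.9 and 77.5 CPM with vehicle and 64.6, 60.6, 56.2 and 71.2 CPM with sorbitol. Its log2 fold change was -0.50, and the groups did not overlap. The peak over TRL-AAG2-2, with its long T run, also lies within 1 kb of the methionine gene TRM-CAT3-1. It therefore counts among peaks near genes of several amino acids and not among the 7 leucine peaks. This peak went from 18.5 ± 2.00 to 11.7 ± 0.777 CPM (SD, n = 4), or -0.67 on the log2 scale. The strongest lysine peak, TRK-TTT7-1, had -0.30 and the strongest valine peak, TRV-AAC1-5, had -0.24, and both calls were lost with the loess offset, with factors from gene ends or contigs and without vehicle 2. TRV-AAC1-5 also lost its call with library totals alone, at a mean of at least 50 counts and without vehicle 1 or sorbitol 2.

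Arginine had 5 of 9 peaks called lower (median -0.32), glutamine 4 of 9 (-0.19), elongator methionine 2 of 4 (-0.15), aspartate 1 of 2 (-0.13), phenylalanine 1 of 2 (-0.47) and glutamate 0 of 1 (-0.06). With gene-end factors the medians of methionine (0.03), aspartate (0.04) and glutamate (0.12) were above zero. The methionine peak TRM-CAT4-2 went from 54.6 ± 2.75 to 47.2 ± 2.59 CPM (SD, n = 4) at an edgeR adjusted p of 0.0378, a call lost under 4 of the 5 other scalings, with the replicate block, at a mean of at least 50 counts and when any of vehicle 1, 2 or 3 or sorbitol 2 or 3 was left out. Within arginine, TRR-TCG2-1 was called lower at -0.32 and TRR-TCG5-1 had 0.11 at 48.8 ± 5.61 and 52.8 ± 2.01 CPM (SD, n = 4), not called. Proline (TRP-CGG2-1, -0.61) and histidine (TRH-GTG1-5, -0.58) each had 1 peak, called lower.

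**Figure D5:**
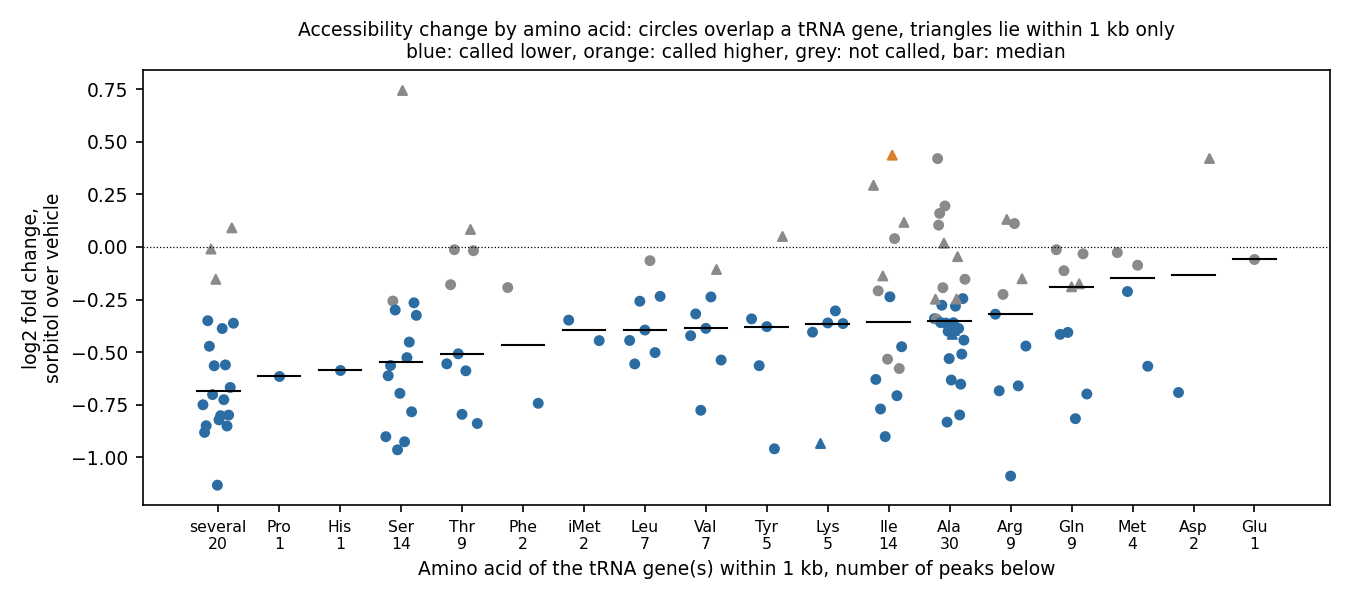
Log2 fold change of each of the 142 peaks by the amino acid of its tRNA genes, with the number of peaks under each name and the median as a bar. The median is lowest for peaks near genes of several amino acids (-0.68), and all group medians lie below zero in this scaling.

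A list of 65 genes was looked up, and each had a peak within 1 kb of an end. It holds genes of RNA polymerase III, of TFIIIA, TFIIIB and TFIIIC, and of the repressor MAF1. The others process, splice, export or charge tRNAs. By the edgeR test on the strongest such peak, 45 were called lower, 2 higher and 18 neither, at a median of -0.32. With gene-end factors it was 29 lower and 5 higher at a median of -0.15. All 6 TFIIIC subunit genes were called lower (median -0.47), as were 2 of 3 TFIIIB genes, 7 of 13 RNA polymerase III subunit genes, 10 of 14 processing genes and 14 of 20 synthetase genes. Each gene was read at its strongest peak. Among peaks near ends of genes other than tRNA genes, 48.4% of those in the strongest decile were called lower and 5.60% higher, at a median of -0.21, and over all strengths 32.2% were called lower.

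GTF3C2, a TFIIIC subunit gene, was at 63.3, 66.4, 59.3 and 55.3 CPM with vehicle and 33.8, 38.6, 31.6 and 32.0 CPM with sorbitol, a log2 fold change of -0.85 ± 0.08 (SE). The peak of POLR3E, a polymerase subunit gene, also lies at a tRNA gene, and it went from 76.9 ± 9.23 to 43.8 ± 2.30 CPM (SD, n = 4). MAF1, the repressor of RNA polymerase III, went from 82.7 ± 5.03 to 50.5 ± 3.29 CPM (SD, n = 4), or -0.71 on the log2 scale. In all 3 the groups did not overlap. FARSB, a subunit of the phenylalanine tRNA synthetase, was called higher at 0.43 (32.9 ± 1.200 to 44.5 ± 2.51 CPM, SD, n = 4).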

How the data were processed

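The authors deposited 1 table of raw counts per peak for 8 Omni-ATAC-seq libraries, in which all values are whole numbers. The submitters' processing notes name Trim Galore 0.6.10, BWA 0.7.17, SAMtools 1.22, Picard, MACS2 2.2.9.1, bedtools, DESeq2 and the builds hg38 and GRCh38. How peaks were merged, whether reads or fragments were counted and how multiply mapping reads were treated are not given in the sources used here, and PCR duplicates may remain. Coordinates are as in the table. Columns were assigned to libraries by the replicate number in their names.

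Members were matched to the RefSeq gene table of GRCh38.p14. Counts of all peaks were fitted in R 4.3.3 with edgeR 4.0.16 (filterByExpr with a minimum count of 10, TMM, quasi-likelihood test, treatment as the only term, Benjamini-Hochberg adjustment over 129487 peaks, threshold 0.05). The fit was tested on simulated data. Levels are TMM-scaled CPM. Ratios within a locus used log2(CPM) and an exact two-sided permutation test, a comparison added after the data were seen. For sequences, 0 of the 155 genes matched the promoter table by symbol. Promoter windows of other genes touched 7, of which 4 were whole.

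The members, blocks and lists were chosen with earlier results of these data known. Single peaks were named by rule: the 6 called lower and the 6 called higher with the smallest p and no overlap of groups, any called peak changed at least 2-fold, the strongest peak of each amino acid and block, and the largest called change in each direction. In the gene list, the 3 called lower and 3 called higher with the smallest p were named. A few genes of the lists are not reported here. Others named were singled out after their values were seen. Replicate numbers are not stated to pair the libraries, and the main fit did not pair them. Alternatives changed the scaling, test, filter, threshold, distance to the gene, block terms and libraries used.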

Additional observations from a re-analysis of the deposited data

Results flagged for a closer look

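Among 114 groups of 4 libraries examined, 4 held a library far from the other 3, and chance gives about 1 in 20, or 5.7. At the flanking peak of TRY-GTA6-1, sorbitol 1 was at 23.83 CPM, against 27.52 to 27.56 CPM in the other sorbitol libraries. At the flanking peak of TRI-AAT8-1, the peak called higher, vehicle 1 was at 7.822 CPM, against 4.721 to 5.06 CPM in the other vehicle libraries. The summed level of arginine peaks was 207.6 CPM in sorbitol 2, against 189.7 to 192.2 CPM, and that of glutamine peaks was 191.6 CPM in sorbitol 4, against 170.2 to 171.7 CPM.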

How the results depend on the processing

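Of the peaks called lower, none was called higher in any alternative fit. The 97 called lower became 64 with gene-end factors and 37 with contig factors, and stayed within 1.5 times in the others (83 to 100 when 1 library was left out). The 1 called higher became 4 with library totals alone, 6 with the loess offset, 9 with gene-end factors, 0 with contig factors, 0 in the DESeq2 test, 4 at a mean of at least 50 counts, 0 at an adjusted p under 0.01, 0 among overlapping peaks and 2 within 2 kb, and 0 to 2 when 1 library was left out (0 without vehicle 2, vehicle 3 or sorbitol 4, 2 without sorbitol 1). The log2 ratio of the summed level, -0.42, moved to -0.24 with gene-end factors and ranged from -0.38 to -0.47 when 1 library was left out. With 300 kb gaps all 6 blocks with a peak had a lower mean sum (4 without overlap of the groups), and with 100 kb gaps all 11 did (8 without overlap). With the replicate number as a block, 93 were called lower and 1 higher, all 93 among the 97. Whether equal numbers pair the libraries is not stated. The correlations of deviations between same-numbered libraries ran from -0.148 to 0.00768, which cannot decide it. With the first number of the library code as a block it was 97 and 1. Of 30 named peaks, 15 stayed called or uncalled as reported under all 18 alternatives, and no call changed direction. Uncalled estimates near zero, such as those of TRE-CTC1-7 and TRQ-CTG1-1, did change sign with the scaling. The causes of these shifts were not tested. Intervals and tests cover the spread among 4 libraries a group, and at low counts (12 members under 50) small changes were not detectable.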
